A study of Macaca fascicularis and Macaca mulatta and Papio anubis with 20 samples.

Results

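CHRNA3 spots were capture spots of *Macaca fascicularis* dorsal root ganglion sections that held at least 2 unique molecular identifiers (UMIs) of CHRNA3, the α3 subunit of the nicotinic acetylcholine receptor. Only spots under tissue with at least 2000 UMIs of all genes were considered. The rule found 272 such spots among 7814 spots of that depth, 21897 *M. fascicularis* tissue spots and 32952 tissue spots of the series whose counts were read. The spots of the same depth with 0 CHRNA3 UMIs, 6646 in number, were the comparison group, and 896 spots with exactly 1 CHRNA3 UMI belonged to neither class. Because CHRNA3 counts chose the spots, CHRNA3 levels in them are a description and carry no test.

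Dorsal root ganglia hold the cell bodies of sensory neurons. Silent nociceptors are peptidergic C-fibre neurons that do not answer to mechanical stimuli in healthy tissue and begin to do so during inflammation. In mice they are recognised by CHRNA3, together with neuropeptides such as CGRP and substance P, and they are common in nerves of viscera and deep tissue. The α3 subunit forms ligand-gated cation channels with β4 or β2 subunits, often with α5. It is also the main α subunit of autonomic ganglion neurons. Whether CHRNA3 spots of the macaque hold silent nociceptors was not settled by the labels, and the spots are named here only by the rule.

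Fresh frozen ganglia from a commercial primate supplier were cut into sections 10 µm thick and 100 µm apart and profiled with Visium, in which transcripts are captured on barcoded spots. Each spot samples a patch of tissue that may contain several cells, or only part of one, so shares are shares of spots and not of cells. At least 2 sections were cut from each ganglion. The 15 sections used came under 4 title codes: a female and a male code of labelled batch 1 and a female and a male code of labelled batch 2, with 4 sections each except 3 in the male code of batch 2. No treatment, genotype, age or ganglion level was labelled. All sections shared the tissue and the permeabilization of 12 min. Whether a title code is 1 animal is neither stated nor denied by the labels, so the title code was the replicate. The p-values of gene tests combine a gene's own spread between codes with a spread pooled over genes, which weighs more. Fewer cells of a type in a spot and less RNA per cell cannot be told apart.

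Section libraries held between 1136433 and 7073134 UMIs under tissue. No section looked like a second deposit of another: chi-square divided by its degrees of freedom was 3.93 or more in all 21 pairs within title codes. Of 4992 barcodes in a section, 4976 were shared by all sections, which is the printed array and not shared cells.

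CHRNA3 was sparse and uneven over sections. Of the 272 CHRNA3 spots, 186 held exactly 2 CHRNA3 UMIs, 53 held 3, 21 held 4, 6 held 5 and 6 held 6. The female code of batch 1 gave 76 of them, the male code of batch 1 gave 93, the female code of batch 2 gave 57 and the male code of batch 2 gave 46. A single section held 50 of the 76 spots of the first code, and another held 37 of the 57 spots of the third. Over all tissue spots, the CHRNA3 level was 36.7, 54.1, 12.01 and 15.1 UMIs per 1000000 UMIs (CPM) in sections 1 to 4 of the female code of batch 1. In the male code of batch 1 it was 47.2, 49.98, 16.4 and 15.4 CPM. Within both codes of batch 1, then, sections 1 and 2 lay above sections 3 and 4, with no overlap. The female code of batch 2 had 37.0, 9.80, 11.8 and 18.9 CPM, with section 1 far above the others. The male code of batch 2 had 73.9, 59.9 and 67.8 CPM in sections 1, 2 and 4, above every other section. What sections with the same number share is not labelled.

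**Figure D1:**
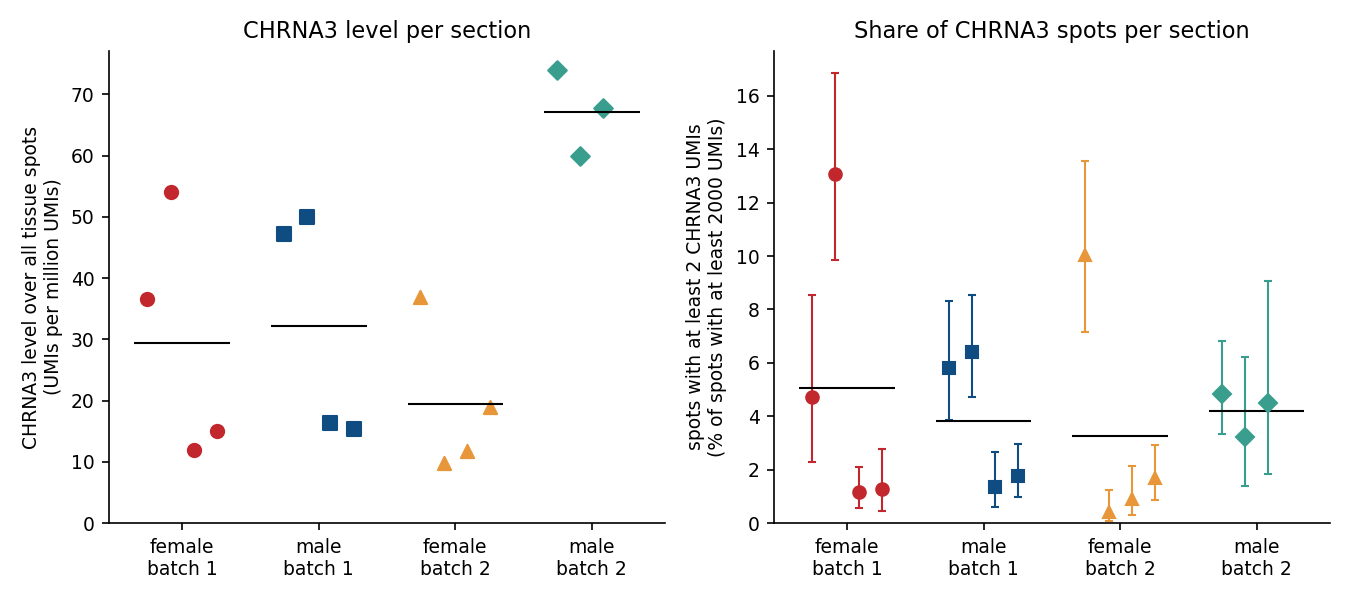
CHRNA3 level over all tissue spots in CPM (left) and share of spots with at least 2 CHRNA3 UMIs among spots with at least 2000 UMIs (right), 1 point per section in section order, grouped by title code. Horizontal lines are title code means and the error bars on the right are exact 95% binomial intervals, which cover counting error only; shares ran from 0.43% to 13.1%, and the male code of batch 2 had the highest levels and the narrowest range of shares.

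The share of CHRNA3 spots per section was 5.06% ± 5.58 (SD, n = 4 sections) and 3.84% ± 2.64 in the female and male codes of batch 1. It was 3.27% ± 4.54 in the female code of batch 2 and 4.19% ± 0.866 (n = 3 sections) in the male code. The mean of batch 2 was lower than that of batch 1 by 0.720 percentage points (difference -0.720, exact two-sided permutation test over 4 title codes, p = 0.667). Female codes exceeded male codes by 0.146 percentage points (p = 1 by the same exact test). With 4 title codes this test cannot go below 0.333. After each spot was thinned to 2000 UMIs, both differences were below 0.1 point in size (-0.0785 and -0.0725), and the second had turned its sign.

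CHRNA3 spots were deeper and held more neuronal RNA than CHRNA3-free spots. Their median depth was 13769, 10653, 10815 and 4974 UMIs in the female and male codes of batch 1 and the female and male codes of batch 2. The medians of CHRNA3-free spots were 5544, 4843.5, 5445 and 3216.5 UMIs. The neuron share, taken as the part of a spot's UMIs from 6 pan-neuronal genes (STMN2, THY1, SNAP25, STMN3, MAPT and TUBB3), placed the median CHRNA3 spot at percentile 70.9 of its section, with 121 of 272 in the top and 21 in the bottom quartile. A spot with more RNA is likelier to reach 2 UMIs of any gene.

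The level of CHRNA3 followed the neuron share in 3 of 4 title codes. It rose from 11.7 CPM in the quartile of spots with the lowest neuron share to 34.7 CPM in the highest quartile of the female code of batch 1. The same quartiles had 18.9 and 39.8 CPM in the male code of batch 1 and 14.8 and 24.5 CPM in the female code of batch 2. In the male code of batch 2 they had 74.1 and 74.0 CPM, with CHRNA3 spots at 4.63% of the spots of either quartile. In that code the rule therefore picked spots of low and high neuron share alike. Over all codes CHRNA3 spots were 1.08% of the lowest and 6.16% of the highest quartile, at median depths of 3419 and 7718 UMIs.

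To bring depth and neuron content close between the classes, each CHRNA3 spot was paired within its section with 1 CHRNA3-free spot of like depth and neuron share. The matched spots had medians of 13968, 10579, 10243 and 5182 UMIs in the same order of codes. Their neuron shares were 1.40%, 1.42%, 1.49% and 1.12%, against 1.42%, 1.41%, 1.48% and 1.13% in CHRNA3 spots. The 6 matching genes are balanced in sum by construction and are not results.

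Against spots of similar depth and neuron share, CHRNA3 spots held more RNA of some nociceptor and peptide genes and less of most A-fibre genes tested. Of 7550 features tested, 690 (9.14%) were called at an adjusted p under 0.05 by edgeR's quasi-likelihood test with the title code as a block. Of these 284 (3.76%) were higher and 406 (5.38%) lower in CHRNA3 spots, with CHRNA3 itself left out. Of 12 nociceptor genes tested among 18 measured, 7 had a positive difference, and 5 were called higher and 0 lower. Of 5 peptide genes tested among 11 measured, 4 rose and 0 fell. Of 6 A-fibre genes tested among 18 measured, 4 fell and 0 rose. The median log2 difference was 0.10 over the nociceptor genes tested, 0.45 over the peptide genes and -1.04 over the A-fibre genes, beside 0.00 over all features tested. The gene lists were chosen with earlier results of these data known, so list counts and medians, here and below, are a description. Levels of the 4 codes did not overlap between classes for 2.05% of features in the higher and 2.15% in the lower direction. Of the markers that describe silent nociceptors in mice, CALCA and TAC1 rose against matched spots.

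The sodium channel SCN11A (Nav1.9), a persistent-current channel of C-fibre nociceptors, had 981, 1063, 402 and 549.8 CPM in the CHRNA3 spots of the female and male codes of batch 1 and the female and male codes of batch 2. Its matched spots had 495, 535, 293 and 266 CPM. Every code was higher in CHRNA3 spots, although levels of the 2 classes overlapped between codes. The log2 difference was 0.88 (SE 0.07, adjusted p = 8.0e-18). GFRA3, the artemin co-receptor of peptidergic nociceptors, had 99.6, 81.3, 108 and 94.8 CPM in CHRNA3 spots and 39.3, 52.7, 50.2 and 62.5 CPM in matched spots. The ranges did not overlap, and the log2 difference was 0.96 (SE 0.15, adjusted p = 7.4e-07). TRPV1, the channel opened by heat and capsaicin, had 80.2, 103, 117 and 79.6 CPM against 60.9, 43.9, 73.3 and 35.2 CPM. It rose by 0.78 on the log2 scale (SE 0.15, adjusted p = 4.8e-05), again without overlap. RET, the signalling receptor of the GDNF family, and PRPH, the intermediate filament peripherin of small neurons, rose less, by 0.24 and 0.20.

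Other nociceptor genes did not pass. SCN9A (Nav1.7) differed by 0.02 (SE 0.20) and NGFR, the low-affinity neurotrophin receptor, by -0.16 (SE 0.07), neither called. SCN10A (Nav1.8), a defining nociceptor channel, was near 0 in both classes: 9 of 272 CHRNA3 spots and 8 of 272 matched spots held a UMI of it.

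**Figure D2:**
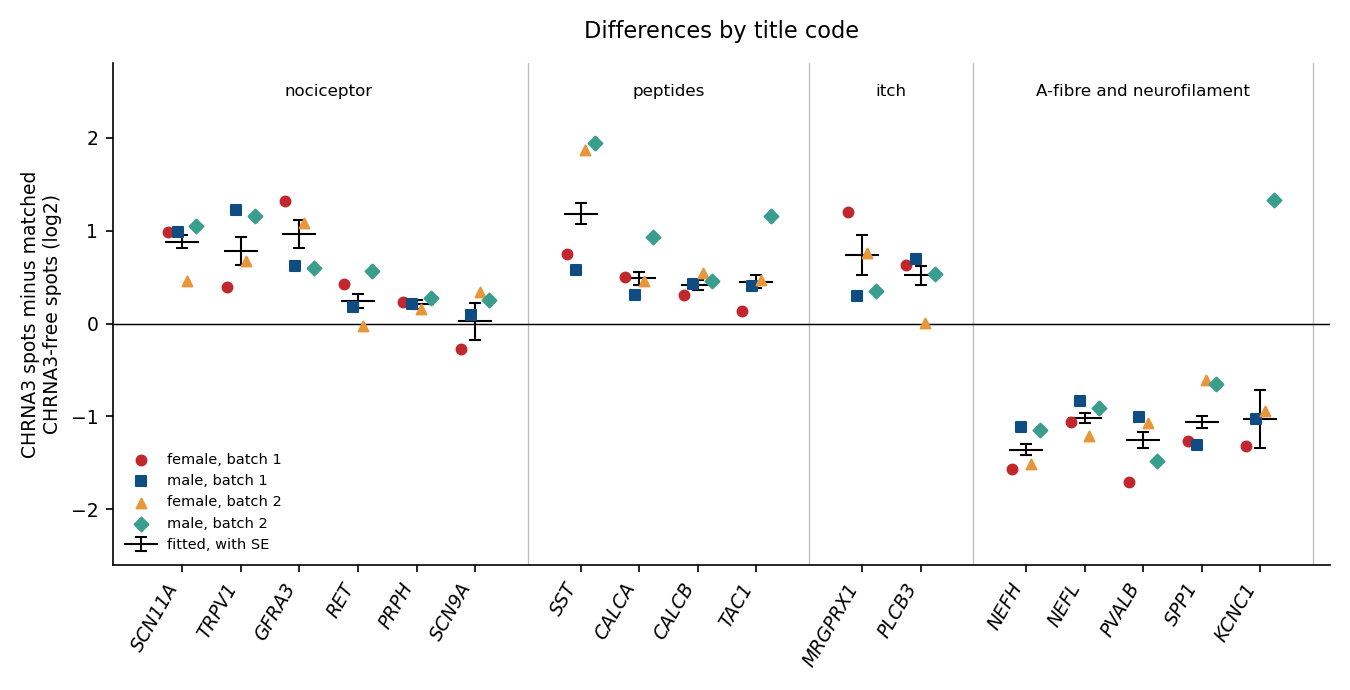
Log2 difference between CHRNA3 spots and matched CHRNA3-free spots for chosen genes of the nociceptor, peptide, itch and A-fibre lists and for NEFL (vertical axis), with 1 point per title code and a black line with its standard error for the edgeR fit. SCN11A, GFRA3, TRPV1, SST and CALCA lay above 0 and NEFH, NEFL, PVALB and SPP1 below 0 in all 4 codes.

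Among neuropeptides, SST (somatostatin, carried by a set of itch-related C fibres) changed most. It had 197, 190.3, 552 and 349 CPM in CHRNA3 spots and 117, 128, 151 and 89.9 CPM in matched spots, so the classes did not overlap. The log2 difference was 1.18 (SE 0.11, adjusted p = 9.8e-15). CALCA, which encodes CGRP, had 606, 515, 639 and 823 CPM against 427, 415, 465 and 429.9 CPM, a rise of 0.48 (SE 0.07, adjusted p = 6.4e-08). TAC1, the substance P precursor, had 1047, 998, 732 and 1627 CPM against 955, 755, 528 and 727 CPM, a rise of 0.45 (SE 0.07). CALCB, the second CGRP gene, rose by 0.41 (SE 0.06) with no overlap between classes. NMU, neuromedin U, was not called (0.33, SE 0.31). PENK, the enkephalin precursor, was too low to be tested, with 0 to 2.73 CPM in CHRNA3 spots. TAC1, CALCA and TRPV1 lost their calls when matching used a wider neuron list that includes NEFL, and when 3 CHRNA3 UMIs were required.

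Of 5 itch genes tested, 3 rose and 0 fell, PLCB3 and MRGPRX1 among them. PLCB3, a phospholipase downstream of Mas-related receptors, rose by 0.52 (SE 0.10, adjusted p = 0.00012). MRGPRX1, the Mas-related receptor for the pruritogen chloroquine, rose by 0.73 (SE 0.22, adjusted p = 0.015). At least 1 UMI of MRGPRX1 was found in 82 of 272 CHRNA3 spots and 58 of 272 matched spots. The MRGPRX1 call was lost without either female code, among others.

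Large-diameter genes moved the other way. NEFH, the heavy neurofilament of myelinated A-fibre neurons, had 2372, 3572, 1648 and 1475 CPM in CHRNA3 spots and 7005, 7714, 4689 and 3275 CPM in matched spots. It fell by 1.36 on the log2 scale (SE 0.06, adjusted p = 8.7e-36) and was lower in every code. PVALB, the calcium buffer parvalbumin of proprioceptors, had 128, 291, 251 and 68.2 CPM against 419, 585, 529 and 192 CPM, a fall by 1.25 (SE 0.09, adjusted p = 5.3e-22). SPP1 (osteopontin), a gene of large neurons, fell by 1.06 (SE 0.07) and the fast potassium channel KCNC1 fell by 1.03 (SE 0.31). KCNC1 was higher in CHRNA3 spots of the male code of batch 2, which ran against the other 3. NEFL, the light neurofilament of the wider neuron list, had 3338 to 5842 CPM in CHRNA3 spots and 6441 to 10406 CPM in matched spots, with no overlap. From the same list the growth-cone protein GAP43 rose by 0.55 (SE 0.07) and the filament protein INA by 0.42 (SE 0.07).

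**Figure D3:**
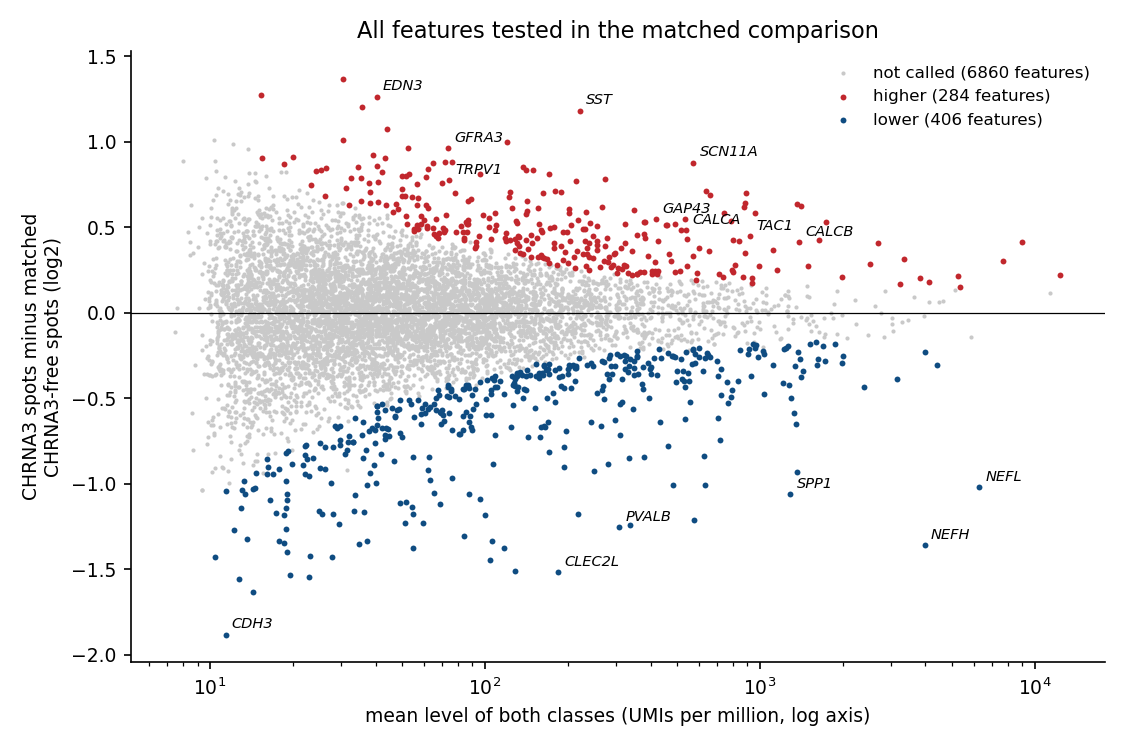
Log2 difference between CHRNA3 spots and matched CHRNA3-free spots (vertical axis) against the mean level of both classes in CPM (log axis) for 7550 features, CHRNA3 left out. Red points are the 284 features called higher and blue points the 406 called lower; NEFH and NEFL stand apart among abundant genes, and SST and SCN11A on the upper side.

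The receptor partners of CHRNA3 were scarcely captured. CHRNB4, CHRNA4, CHRNA1, CHRNA2, CHRND and CHRNG had 0 UMIs in the 272 CHRNA3 spots. Were spots independent, this would allow up to 1.1% of spots with a captured UMI of each. Spots of a section or title code are not independent, so the bound covers counting error only. It sets no limit on spots whose cells express these genes: ISL1 and POU4F1, transcription factors of sensory neurons, were captured in 0 and 3 of the same 272 spots. CHRNA5 had 1 UMI and CHRNA6 had 3 UMIs. In all 6646 CHRNA3-free spots CHRNB4 had 1 UMI and CHRNA5 had 14, so both were near 0 in the tissue as measured. CHRNB3 and CHRNE were untested, with 15 and 16 UMIs in CHRNA3 spots and 29 and 21 in matched spots. CHRNB2 had 26.4, 16.3, 19.1 and 15.2 CPM in CHRNA3 spots and between 16.6 and 29.0 CPM in matched spots, and the classes overlapped (-0.15, SE 0.26, adjusted p = 0.84). CHRNB1, best known as the muscle β1 subunit, had 27.3, 38.3, 17.7 and 41.7 CPM against 8.14 to 35.2 CPM in matched spots. It rose by 0.84 (SE 0.25, adjusted p = 0.020), but the call was lost without the female code of batch 1, the male code of batch 1 or the female code of batch 2.

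Among genes of receptor assembly, 3 of 8 measured were tested. TMEM35A, the nicotinic receptor chaperone NACHO, had 151, 151, 114 and 133 CPM in CHRNA3 spots and 171, 180.4, 166 and 102 CPM in matched spots and was not called (-0.25, SE 0.10). LY6H, a membrane protein that lowers nicotinic receptors at the cell surface, had 7.58 to 12.4 CPM in CHRNA3 spots and 13.6 to 37.5 CPM in matched spots. It fell by 1.33 (SE 0.29, adjusted p = 0.00049), with no overlap. The acetylcholine esterase ACHE differed by 0.12 (SE 0.07) and was not called, and CHAT and SLC18A3, which make and load acetylcholine, had 0 UMIs in both classes.

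Markers of autonomic neurons were at or near 0. The 11 measured genes of that list summed to 0 to 10.5 CPM per code in CHRNA3 spots (16 UMIs) and 0 to 2.81 CPM in matched spots (4 UMIs). DBH, SLC18A2 and SLC6A2, which define noradrenergic neurons, had 0 UMIs in both classes. None of the list was abundant enough to be tested. As for the receptor partners, counts at or near 0 set no limit on spots whose cells express these genes.

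Genes of mechanical transduction did not move together. PIEZO2, the channel of touch and of sensitised silent nociceptors in mice, had 33.5, 45.0, 34.1 and 37.9 CPM in CHRNA3 spots and 54.3, 45.8, 63.8 and 27.4 CPM in matched spots, and it was not called (-0.45, SE 0.19, adjusted p = 0.14). TMEM63C, a relative of osmosensitive channels, had 215 to 284 CPM in CHRNA3 spots and 166 to 184 CPM in matched spots and rose by 0.54 (SE 0.09). MTMR2, a phosphatase that modulates PIEZO2, rose by 0.47 (SE 0.14, adjusted p = 0.015), but not without the female code of batch 1 or of batch 2. ANXA6, an annexin reported to restrain PIEZO2, fell by 0.44 (SE 0.07, adjusted p = 4.0e-07). TMEM150C and TMEM63B, the other genes of the list that were tested, did not pass. Of the cold and low-threshold C-fibre list only GFRA2 was tested, and it was not called (-0.32, SE 0.12). TRPM8, the cold channel, had a UMI in 8 of 272 CHRNA3 spots and 9 of 272 matched spots.

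Some genes of other cells were called between CHRNA3 spots and matched spots, with log2 differences of at most 0.56 in size. The counts per list stand beside 9.14% of all features called. Of 7 satellite glia genes tested 1 rose (GLUL, 0.23), of 6 myelin genes 1 rose (PMP22, 0.25), of 8 immune genes 1 rose (CD74, 0.24), and of 6 fibroblast, 4 endothelial and 2 smooth muscle genes 1 each fell (LUM -0.54, EGFL7 -0.38, TAGLN -0.56). Over title codes the summed levels overlapped for satellite glia (4368 to 5872 CPM in CHRNA3 spots, 3775 to 5639 in matched spots), for myelin (1862 to 2943, 1586 to 2733) and for fibroblasts (1031 to 2339, 946 to 2264). Smooth muscle sums did not overlap, with 49.3 to 70.8 CPM in CHRNA3 spots (207 UMIs) and 74.0 to 117 CPM in matched spots (254 UMIs). A UMI of LUM was held by 0% and 2.17% of CHRNA3 spots in the female and male codes of batch 2, so its fall rests largely on batch 1. The part of these small shifts in the neuronal differences was not tested.

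The 12 genes that rose and the 8 that fell most in the matched comparison, of one direction in all codes, added genes outside the lists. EDN3, the peptide endothelin 3, rose by 1.26 (SE 0.23), with 35.3, 23.9, 81.8 and 94.8 CPM against 23.4, 11.7, 20.4 and 31.3 CPM. MYO1A, a brush-border class I myosin, rose by 1.2 (SE 0.20), with 26.5 to 75.8 CPM against 11.7 to 30.0 CPM. IGSF21, a synaptic adhesion molecule, rose by 1.07, and PTGDR, a receptor for prostaglandin D, by 0.93. LEPROT (1.28), DGKH (1.01), ATP6V1C2 (0.96), FGGY (0.91), GRK6 (0.90) and B3GNT2 (0.88) rose as well, beside SST and GFRA3. CLEC2L, a lectin-like membrane protein, fell by 1.52 (SE 0.10, adjusted p = 1.9e-22), with 71.4, 151, 89.9 and 75.8 CPM against 263, 344, 288 and 192 CPM. TLCD3B fell by 1.44 (SE 0.13), with all 4 codes of CHRNA3 spots below every matched one. CDH3, PTH1R, the parathyroid hormone receptor, PDGFD, SMPX, GPRC5C and GPAT3 fell by 1.42 to 1.88. LEPROT lost its call in 8 of 29 other settings, FGGY in 14 of 27 and GPAT3 in 3 of 9.

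Leaving out the male code of batch 2, where CHRNA3 did not follow the neuron share, gave 335 features higher and 447 lower. The count of calls was 370 without the female code of batch 1, and 375 without the male code of batch 1. It was 448 when the section with 50 CHRNA3 spots was left out. Matching on the wider neuron list gave 115 higher and 132 lower, and edgeR without the title code block called 3.

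Levels were also read by the number of CHRNA3 UMIs in a spot. SCN11A had a mean of 300.2 ± 107 CPM (SD, n = 4 title codes) in spots with 0 CHRNA3 UMIs, 491 ± 247 in spots with 1, 676 ± 244 in spots with 2 and 839 ± 476 in spots with 3 or more. SST had 110.0 ± 33.5, 167 ± 29.8, 296 ± 123 and 389 ± 258 CPM in the same order. NEFH went down from 6013 ± 2312 over 3717 ± 1170 and 2719 ± 1387 to 1603 ± 351 CPM. Depth moved too, with mean code medians of 4762, 7061, 9276 and 12829 UMIs, and these levels are a description with no test. Spots just outside the threshold, with 1 UMI, thus lay between the classes for all 3 genes. TRPV1 was flat above 0 UMIs, with 100.2 ± 30.0, 101 ± 36.0 and 97.1 ± 42.2 CPM.

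**Figure D4:**
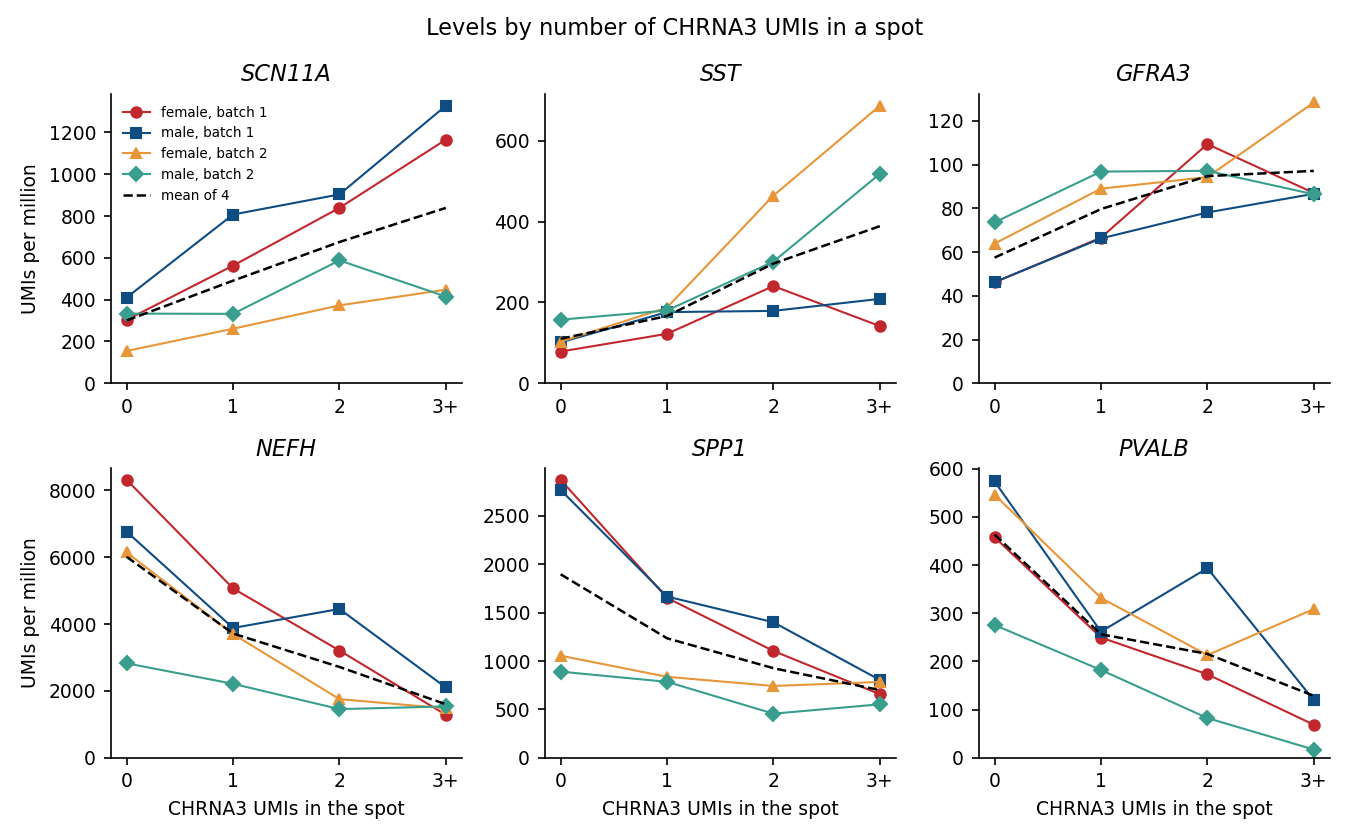
Level of 6 genes in CPM in spots with 0, 1, 2 and 3 or more CHRNA3 UMIs, with 1 line per title code and a dashed line for the mean of 4 codes. Mean levels of SCN11A, SST and GFRA3 were higher, and those of NEFH, SPP1 and PVALB lower, at each step in CHRNA3 count; single codes broke the order.

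Against all CHRNA3-free spots, where depth and neuron content differ as well, 1324 of 9326 features (14.2%) were called, 647 higher (6.94%) and 677 lower (7.26%). Of 9 fibroblast genes tested, 8 fell and 0 rose, led by COL3A1 (-2.27, SE 0.22) and LUM (-1.98, SE 0.14). In the matched comparison 1 of 6 did. All 3 smooth muscle genes tested fell as well. COL3A1 was at or near 0 in both classes of batch 2, so its fall rests on batch 1. LUM in CHRNA3-free spots had 315 and 199 CPM in the female and male codes of batch 1. It had 6.24 and 6.75 CPM in those of batch 2, so its fall rests largely on batch 1 too. Of 8 myelin genes tested 4 fell, and of 9 A-fibre genes 6 fell, among them NEFH (-1.39) and RUNX3, a transcription factor of proprioceptors (-1.36). Of 7 itch genes 5 rose, led by MRGPRX1 (1.64, SE 0.19), and among 13 nociceptor genes 4 rose and 2 fell. Among those that fell was RAMP1, a subunit of the CGRP receptor (-0.68). Without the female or the male code of batch 1 the count of calls was 622 or 714. TRPM8 fell by 1.5 (SE 0.44, adjusted p = 0.026), with a mean of 1.94 ± 1.58 CPM in CHRNA3 spots and 6.65 ± 1.82 CPM elsewhere.

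The genes that rose most against all CHRNA3-free spots were GIP (1.74), GPAT2 (1.70), MRGPRX1, SST (1.52), CLDN3 (1.51), FAM3B (1.39), OSMR (1.36), ATP6V1C2 (1.36), SCN11A (1.35), TBC1D2 (1.32), CPNE5 (1.31) and EDN3 (1.31). GIP, an incretin peptide gene, had 12.3 to 78.4 CPM in CHRNA3 spots and 5.17 to 21.6 CPM elsewhere, and was higher in each code. OSMR, the oncostatin M receptor of itch neurons, had 7.05 to 17.2 CPM against 4.09 to 4.82 CPM. The 8 that fell most were PF4V1, MGP, SFRP4, COL3A1, ACTA2, LUM, FGF11 and MFAP5, by 1.91 to 3.32. SFRP4, COL3A1, LUM and MFAP5 are matrix or fibroblast genes, MGP is a matrix protein and ACTA2 is smooth muscle actin. SFRP4 in CHRNA3-free spots had 198 and 303 CPM in the female and male codes of batch 1 but 6.17 and 4.18 CPM in those of batch 2. Summed levels of the cell type lists went both ways. Fibroblast genes summed to 1682 ± 597 CPM (SD, n = 4 title codes) in CHRNA3 spots and 2993 ± 1846 CPM elsewhere, and smooth muscle genes to 62.6 ± 9.91 and 167 ± 93.3 CPM. Satellite glia genes summed to 4983 ± 667 and 4602 ± 527 CPM, and immune genes to 1224 ± 582 and 1289 ± 634 CPM. The part of tissue makeup in the falls was not tested.

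CHRNA3 spots were then set against spots chosen in the same way by another sensory gene. Spots with at least 2 UMIs of TRPM8 and none of CHRNA3 numbered 13, 20 and 12 in the female and male codes of batch 1 and the female code of batch 2, and the male code of batch 2 had 0 and was left out. CHRNA3 spots without TRPM8 numbered 72, 90 and 56. Of 6090 features tested, 201 (3.3%) were called, 125 higher (2.05%) and 76 lower (1.25%) in CHRNA3 spots. SCN11A had 990.1, 1057 and 404.5 CPM in CHRNA3 spots and 347, 218 and 204 CPM in TRPM8 spots, a rise of 1.72 (SE 0.17, adjusted p = 1.0e-08). SST rose by 1.51 (SE 0.23), and PLCB3 by 1.28 (SE 0.24). ENTPD3, an ectonucleotidase, had 29.2, 28.8 and 37.0 CPM against 192, 259 and 263 CPM and fell by 2.89 (SE 0.23, adjusted p = 5.3e-11). PENK had 5 UMIs in CHRNA3 spots and 54 in TRPM8 spots and fell by 5.95 (SE 0.50). Of 5 peptide genes tested against TRPM8 spots, only SST was called higher and only PENK lower. TAC1, which rose against matched spots, was not called here (-0.31, SE 0.14, edgeR adjusted p = 0.30). COLQ, the collagen tail of acetylcholinesterase (-3.60), ABCA4 (-3.38) and the potassium channel KCNC2 (-2.44) fell as well. TRPV1 fell by 0.71 (SE 0.20, adjusted p = 0.046). Nociceptor genes thus went both ways, SCN11A toward CHRNA3 spots and TRPV1 toward TRPM8 spots. The call of TRPV1 was lost without either code of batch 1. FAM107B (2.32), PTGDR (2.30), GPAT2 (2.29), MRGPRX1 (2.18) and DAPK1 (1.85) rose most, and the MRGPRX1 call was lost without either code of batch 1. In TRPM8 spots these genes had 5, 5, 6, 5 and 27 UMIs, so all but DAPK1 were near 0 there. The count of calls was 58 without the female code of batch 1, 51 without the male code of batch 1 and 351 without the female code of batch 2.

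Against MRGPRX1 spots fewer features were called with title codes as samples. With sections as samples the counts were alike, 49 of 1329 against MRGPRX1 spots and 47 of 1172 against TRPM8 spots. MRGPRX1 spots without CHRNA3 numbered 20, 17 and 43 in the same 3 codes, and the male code of batch 2 had 2 and was left out. CHRNA3 spots without MRGPRX1 numbered 48, 67 and 32. Of 5696 features 29 (0.509%) were called, 16 higher (0.281%) and 13 lower (0.228%). NEFH had 3422, 4366 and 2366 CPM in CHRNA3 spots and 1977, 2009 and 1438 CPM in MRGPRX1 spots, a rise of 0.87 (SE 0.08, adjusted p = 6.8e-06). SST had 208, 176 and 734 CPM against 129, 72.9 and 251 CPM and rose by 1.30 (SE 0.16), though not without the female code of batch 2. TAC1 had 1188, 1192 and 775 CPM against 886, 572 and 486 CPM and rose by 0.69 (SE 0.11, adjusted p = 0.0033), though not without the male code of batch 1. GFRA2, the neurturin co-receptor of non-peptidergic neurons, had 129, 93.3 and 84.8 CPM against 258, 229 and 282 CPM and fell by 1.32 (SE 0.17, adjusted p = 0.00030). SCN11A (-0.50, SE 0.12, adjusted p = 0.10), CALCA (-0.16, SE 0.10) and TRPV1 (0.05, SE 0.30) did not pass. HECTD4 (1.39), the neuronal vesicle protein NSG1 (1.22) and GNAZ (1.06) rose, and GPX2 (-1.47), EXOC1L (-1.15), MMD (-0.998) and SYNPR (-0.76) fell. The HECTD4 and SYNPR calls were lost whichever code was left out, and without the male code of batch 1 the count of calls was 8.

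**Figure D5:**
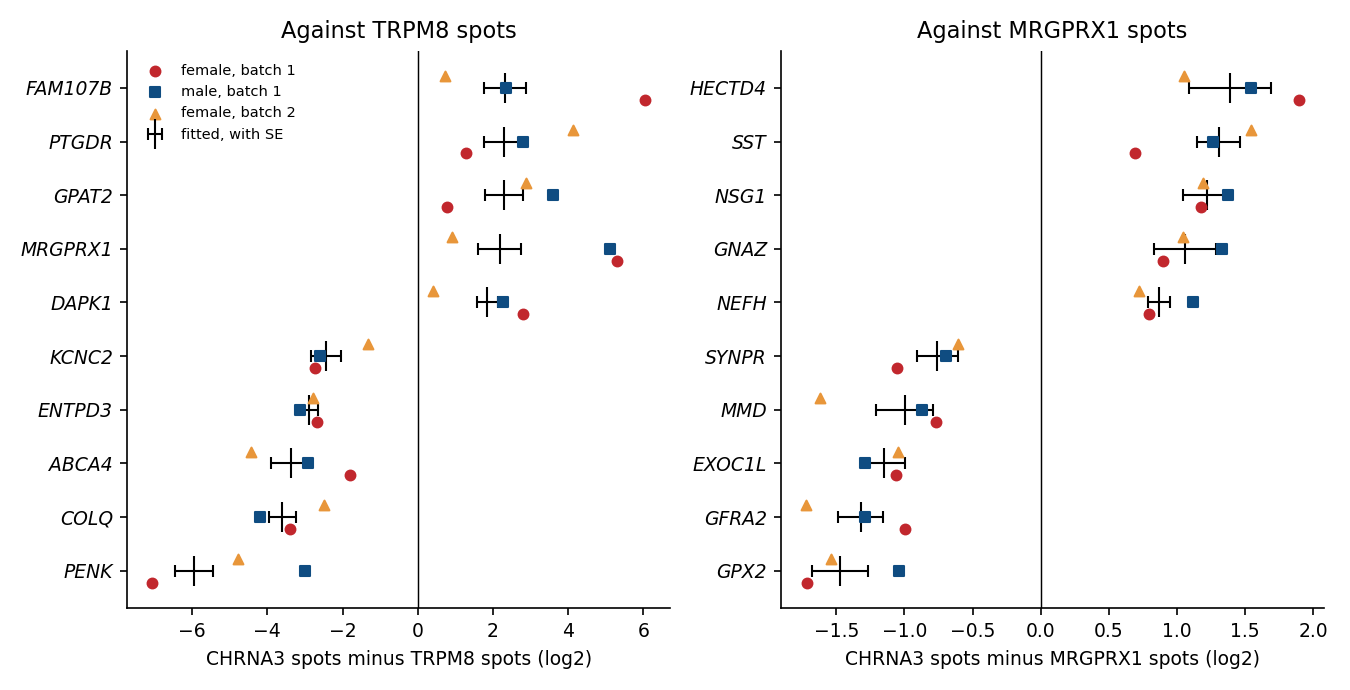
Log2 difference between CHRNA3 spots and TRPM8 spots (left) or MRGPRX1 spots (right) for the 5 genes that rose and the 5 that fell most in each (horizontal axes, different ranges), with 1 point per title code for 3 codes and a black mark with its standard error for the edgeR fit. ENTPD3 and COLQ fell in all codes on the left by more than any gene shown fell on the right.

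The matched difference itself was compared between batches and between sexes by an interaction term. Between batches 4 of 7550 features were called (0.053%), and 411 (5.44%) had an unadjusted p under 0.05. The rise of SST was 0.75 and 0.57 for the female and male codes of batch 1, 1.87 and 1.94 for the female and male codes of batch 2, and larger in batch 2 by 1.22 (SE 0.19, adjusted p = 0.00020). With sections as samples in edgeR the difference of SST was 1.18 (SE 0.27) and was no longer called (adjusted p = 0.15). SPP1 fell less in batch 2, by a difference of 0.66 (SE 0.11), and NCDN, the neuronal protein neurochondrin, differed by 0.62 (SE 0.13). Both calls were lost as well with sections as samples (edgeR adjusted p = 0.39 and 0.25), where 0 of 1877 features were called and 106 had an unadjusted p under 0.05. Batch 1 was processed with Space Ranger 2.0.0 and batch 2 with 2.1.0, and the batches hold different title codes, so these cannot be told apart. Between sexes 1 of 7550 features was called (0.0132%), an unnamed feature, ENSMFAG00000060234, with a difference of -1.72 (SE 0.28) between female and male codes, and 306 (4.05%) had an unadjusted p under 0.05. With sections as samples edgeR called 0 of 1877 features for sex, with 60 at an unadjusted p under 0.05, and ENSMFAG00000060234 was too low to be tested.

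CHRNA3 spots lay mostly apart from each other. They formed 216 contiguous groups, the largest of 8 spots, and 96 of 272 (35.3%) had another CHRNA3 spot among their 6 neighbours. Of the matched spots 82 of 272 (30.1%) had one. The male code of batch 2 had 13 of 46 CHRNA3 spots and 3 of 46 matched spots beside a CHRNA3 spot, and the male code of batch 1 had 31 and 33 of 93. Neighbouring spots that were themselves CHRNA3 spots or matched spots were then left out. In the other neighbouring spots CHRNA3 had 27.0, 35.6, 20.1 and 51.2 CPM beside CHRNA3 spots and 20.5, 27.4, 16.03 and 59.02 CPM beside matched spots. The mean difference was 2.72 CPM, positive in 3 of 4 codes (exact two-sided sign-flip permutation test, p = 0.5, smallest possible 0.125). Because neighbouring CHRNA3 spots were left out, this test cannot decide whether CHRNA3 spots adjoin each other. In the authors' deposited table, Moran's I of CHRNA3, a score that is high where spots of similar level adjoin, ran from -0.00253 to 0.118 over 16 sections with a median of 0.0123. Its adjusted p in the authors' deposited table was under 0.05 in 5 of 16 sections.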

How the data were processed

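UMI counts per gene and spot were deposited by the authors as Space Ranger matrices, version 2.0.0 in 8 and 2.1.0 in 7 of the sections used, per the file headers. The submitters' processing notes name the build Mmul_10, while feature identifiers carry the *M. fascicularis* prefix; coordinates and sequences were therefore not used. Moran's I scores and their p-values were deposited by the authors per section and only described. Of 22000 features 15068 had a symbol; all entered totals and tests.

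UMIs were summed per title code and class and tested with edgeR 4.0.16 in R 4.3.3 (TMM, filterByExpr, glmQLFit, title code as block, Benjamini-Hochberg over all features, adjusted p threshold 0.05). The fit against matched spots had 3 residual and 81.97 prior degrees of freedom per gene, the latter from pooling over genes. Fits against all CHRNA3-free, TRPM8 and MRGPRX1 spots had 3, 2 and 2 residual and 16.95, 32.3 and 15.87 prior ones. CPM is UMIs per 1000000 UMIs of all features. Matching was an optimal assignment without reuse within sections on log10 UMIs and neuron share. DESeq2 1.42.0 and limma 3.58.1 (voom) were alternatives. On simulated data 82.5% of 97 genes changed 2-fold and 100% of 99 changed 4-fold were recovered in the matched design over 7373 genes, with 8 false calls. Each simulated gene had the same base level in all title codes and a spread estimated by edgeR from these data. The rates therefore leave out level differences between codes and do not test the real calls. Title codes with fewer than 10 spots in a class were left out. Named genes had a symbol, a call, 1 direction in all codes and at least 10 CPM in the higher class: the 12 highest and 8 lowest (5 and 5 against TRPM8 and MRGPRX1 spots), beside list members. The spots and gene lists were chosen with earlier results of these data known. Doublet calling does not apply to spots. Sections labelled with the other species were not tested. 1 male section of batch 2 entered only through the authors' table. Results of 2 genes are not reported here, although the genes stay in the counts.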

Additional observations from a re-analysis of the deposited data

Results flagged for a closer look

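Among 46 groups checked for a sample far from the others, 2 had one, and chance flags about 1 in 20. Section 1 of the female code of batch 2 had 10.0% CHRNA3 spots, far above the other 3 sections of the code. In the matched comparison GRK6, a G-protein-coupled receptor kinase, had a log2 difference of 1.42 in the male code of batch 2, far above the other 3 codes. The matched difference changed between batches for SST (1.22), SPP1 (0.66) and NCDN (0.62), given as batch 2 minus batch 1, with title codes as samples. With sections as samples edgeR called none of the 3 (adjusted p = 0.15, 0.39 and 0.25). With title codes as samples it changed between sexes for the unnamed feature ENSMFAG00000060234 (-1.72, female minus male), which was too low to be tested with sections as samples. CHRNA3 was also counted outside the comparisons: 104 UMIs in the male section of batch 2 that entered only through the authors' table, and 209 UMIs under tissue in section 2 labelled *P. anubis*, where 30 of 1218 spots met the rule. The sections labelled *M. mulatta* had 0 CHRNA3 UMIs in 190376 and 264661 UMIs under tissue. The names of the deposited files and the sample labels disagree for these 2 species, so which species a value belongs to was not settled.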

How the results depend on the processing

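Of 128 alternative values for comparisons, 97 kept their direction and, for counts, lay within 1.5 times the main count. Against all CHRNA3-free spots the count of 1324 calls was 691 with DESeq2, 400 with spots thinned to 2000 UMIs and 1 without the title code block. Against matched spots the count of 690 was 193 with DESeq2, 247 with a wider neuron list, 129 with thinned spots (of 2692 tested), 420 with at least 3 CHRNA3 UMIs and 3 without the block. Named genes and called list members were also followed singly against matched spots. With the wider neuron list 23 of them lost their call and 24 kept it. With DESeq2 22 lost and 25 kept it, and with at least 3 CHRNA3 UMIs 15 lost and 22 kept it. With thinned spots 13 lost and 13 kept it, and 1 reversed. With sections as samples and the section as replicate block, 474 of 1877 features were called against matched spots, 47 of 1172 against TRPM8 spots and 49 of 1329 against MRGPRX1 spots. In the same block design edgeR called 0 of 1877 for the batch and 0 for the sex difference, with 106 and 60 at an unadjusted p under 0.05. With 1 UMI of the defining gene the counts were 387 and 135. As a title code or section was left out in turn, counts ran from 622 to 1389 against all CHRNA3-free spots, 370 to 782 against matched spots, 51 to 351 against TRPM8 spots and 8 to 32 against MRGPRX1 spots. The batch difference in share ran from -1.85 to 0.613 points and the sex difference from -1.19 to 0.797 points. Thinning (-0.0725) or a threshold of 1 UMI (-4.97) also reversed the sex difference. Neighbour differences ran from 1.59 to 4.70 CPM as sections were left out. With all neighbours kept, CHRNA3 spots among them, the difference was 7.72 CPM and positive in every code (exact sign-flip permutation test, p = 0.125). With all CHRNA3-free spots as control it was 4.50 CPM (p = 0.375 by the same exact test). Thinned spots reversed CALB1 (0.55) and CSF1R (0.033) against all and CD74 (-0.043) against matched spots. The causes were not tested, except that thinning and sections leave fewer features or counts to test. Section numbers were not used as a pairing. Deviations of same-numbered sections correlated at -0.213 to 0.518 over 21 pairs (median 0.0964). Those of sections with different numbers correlated at -0.652 to 0.625 over 63 pairs (median -0.0066). Whether same-numbered sections share a slide or run was not tested.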
